A study of Mus musculus with 8 samples.

Results

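The fibroblast growth factor (FGF) and epidermal growth factor (EGF) families were followed in MIN6 cells, an insulin-producing line derived from a mouse pancreatic β-cell tumour, after forced expression of the zinc-finger transcription factor Klf4. Members were taken by gene name: every numbered Fgf gene, Fgfr1 to Fgfr4, Fgfrl1, Egfr, Erbb2 to Erbb4, Nrg1 to Nrg4, and Egf, Ereg, Areg, Btc, Hbegf, Tgfa and Epgn. This gave 42 of the 55536 genes counted, of which 18 encode secreted FGFs, 4 intracellular FGFs, 5 FGF receptors, 7 EGF-type ligands, 4 neuregulins and 4 receptors of the ErbB family.

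All 8 cultures were genotype WT MIN6 cells transfected for 48 h with Lipofectamine 3000, and polyadenylated RNA was sequenced. Control cells (4 libraries) received the empty vector pcDNA 3, and Klf4 cells (4 libraries) received pGloMyc-Klf4, so that plasmid backbone and Klf4 differ together between the groups. Batch 1 held replicates 1 and 2 of either plasmid, and batch 2 held replicates 3 and 4. The promoter that drives Klf4 in the plasmid and the share of cells that took it up are not given in the sources used here, the extraction text of the labels names isolated islets although every sample is labelled Min6, and MIN6 is a single cell line, so the spread between libraries is that between cultures of one line.

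FGFs bind receptor tyrosine kinases together with heparan sulphate chains on the cell surface, and the endocrine FGFs need a klotho co-receptor in its place. EGF-type ligands and neuregulins are made as membrane precursors, are released by proteases and bind receptors of the ErbB family, which signal as dimers. Both families feed the Ras and ERK kinase cascade, and in the pancreas they are known for growth of the progenitor epithelium and for β-cell proliferation.

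Total counts ran from 45417853 to 52731176 per library. Klf4 itself, counted together from plasmid and genome, went from 40.1 to 5040 CPM (reads per library scaled to a common size, with TMM factors for composition), and every Klf4 library was above every control library. The 9 β-cell markers summed to 25306 to 32061 CPM in control and 23628 to 32318 CPM in Klf4 libraries. Of the 9, 5 were lower (55.6%, against 15.5% of all genes tested). These falls were small, with log2 fold changes of Klf4 over control from -0.07 (Iapp) to -0.22 (Slc30a8). Ins1, Ins2, Nkx6-1 and Slc2a2 did not pass the test. Markers of other cell types were low, yet some moved with the groups. The 6 fibroblast markers summed to 2.61 to 3.84 CPM in control and 21 to 27.4 CPM in Klf4 libraries (3 of the 4 tested were higher, and Lum was at 0 in every library). Dcn made up most of the second sum, at 17.6 CPM against 0.0461 CPM in control, while Col1a2 did not pass the test (1.34 CPM in control and 1.42 CPM in Klf4 libraries). The 8 markers of stratified epithelium summed to 0.446 to 0.704 CPM and 21.7 to 34.9 CPM (5 of 5 tested were higher, with Trp63 and Ivl at 0 in every library). Krt14 made up most of the second sum, at 23.1 CPM in Klf4 libraries. These 5 (Krt14, Krt15, Dsg3, Lor and Sprr1a) reached the low-count filter's level in every Klf4 library but not in every control library. Their selection thus favoured a higher call. The same holds for the fibroblast markers Dcn and Pdgfra and the endothelial marker Cdh5. Of all genes tested, 21.1% were called higher. Of the 5 endothelial markers 1 of the 3 tested was higher, and the summed level went from between 4.10 and 4.48 CPM to between 5.01 and 5.28 CPM. The 5 leukocyte markers (5.65 to 6.29 CPM against 5.53 to 7.16 CPM) and the 6 acinar markers (11.4 to 13.4 CPM against 10.3 to 14.6 CPM) overlapped between groups. The part of these cells or programmes in the changes below was not tested, and in bulk RNA fewer cells of a type and less RNA per cell cannot be told apart.

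Of the 42 members, 32 passed the filter on low counts and were tested. Klf4 cells had higher levels of 21 and lower levels of 2 at an adjusted p under 0.05 in edgeR's quasi-likelihood test with a term for batch. Over all 18266 genes tested, 36.6% were called, 21.1% higher and 15.5% lower, whereas 65.6% of the tested members were higher and 6.25% lower. These shares cannot be read against each other directly. Of the tested members, 9 reached the filter's level in every Klf4 library but not in every control library. They were Areg, Fgf2, Fgf3, Fgf4, Fgf7, Fgf8, Fgf17, Fgfrl1 and Nrg2. A filter passed in this way favours a higher call without forcing it, and all 9 were higher. Among the 23 members at the filter's level in every control library, 12 were higher (52.2%), 2 were lower (8.70%) and 9 did not pass the test. Of the 16203 genes that met the same condition, 18.1% were higher and 17.4% lower. The median log2 difference (Klf4 over control, the fitted log2 fold change) was 0.21 over these 23 members and -0.03 over these genes. Where scaling factors came from abundant genes only, 72.8% of all calls were higher instead of 57.7%, while the members' counts stayed at 21 and 2.

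**Figure D1:**
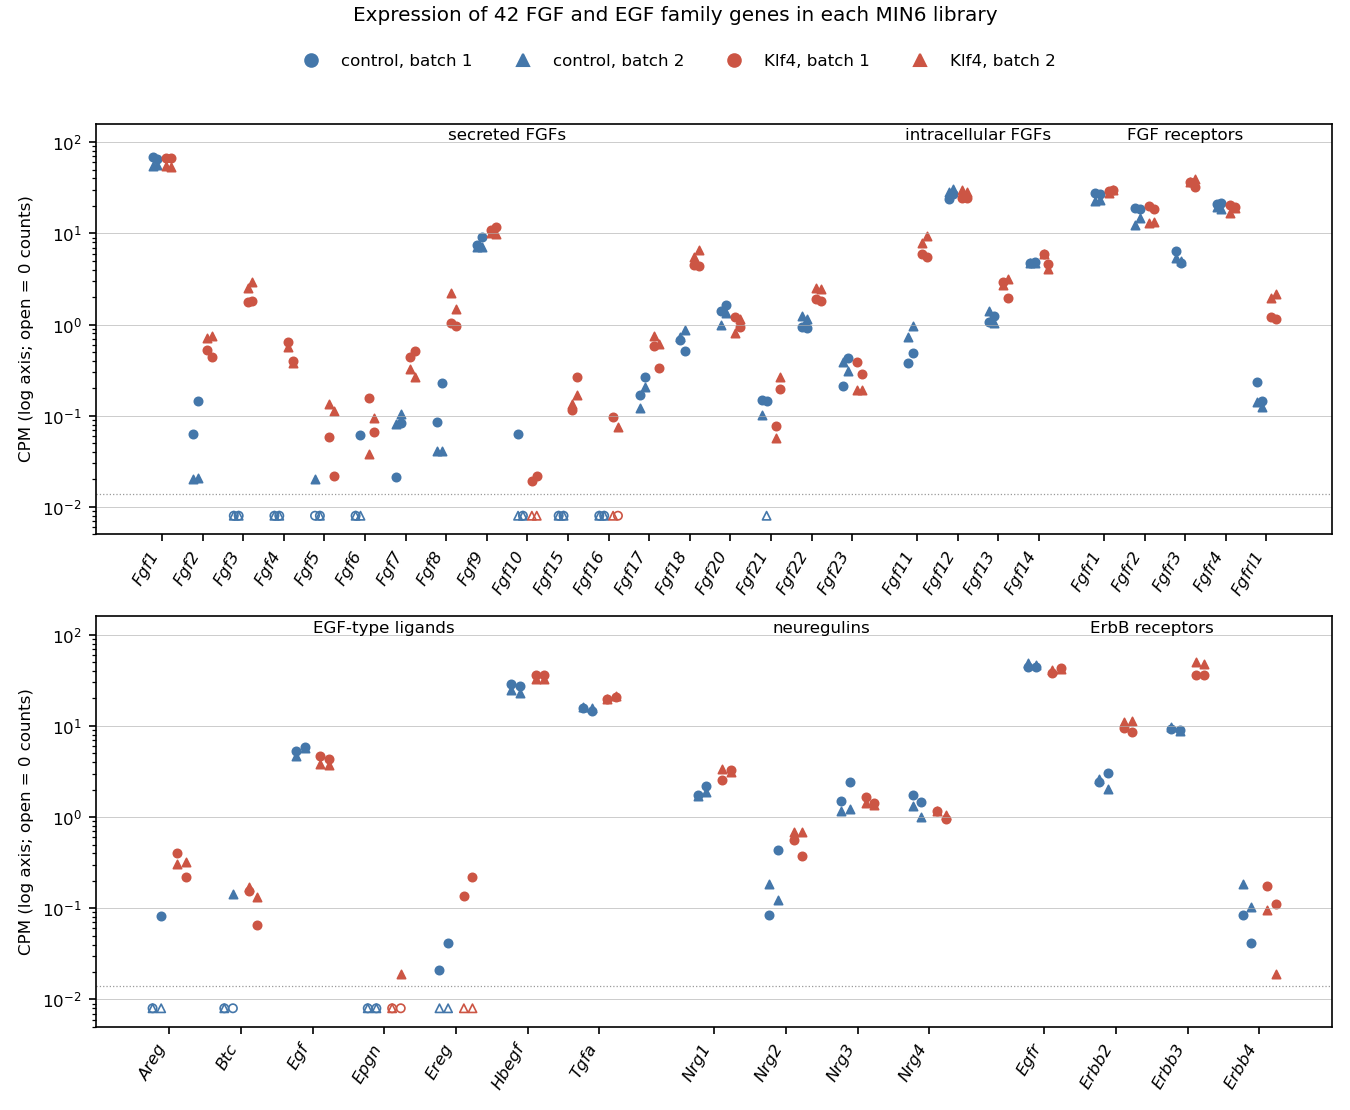
Normalised level of each of the 42 members in each library, in CPM on a log axis, with blue for control, red for Klf4, circles for batch 1 and triangles for batch 2, and open symbols below the dotted line for 0 counts. Fgf3 and Fgf4 have no counts in any control library, and the 4 Klf4 libraries of Fgfr3 (32.5 to 39.9 CPM) lie above its 4 control libraries (4.72 to 6.35 CPM).

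Neighbouring FGF genes of chromosome 7 had no counts in any control library and were counted in every Klf4 library. Fgf3, which acts in inner ear and tail development, had 0 counts in each control library and 91, 82, 133 and 155 counts in Klf4 replicates 1 to 4. Its level in Klf4 cells, 2.26 ± 0.573 CPM (SD, n = 4), was at least 36.4-fold above a floor of 3 counts per control library (edgeR adjusted p 5.3e-12). Fgf4, a ligand of the early embryo's inner cell mass, likewise went from 0 counts in every control library to 33, 18, 30 and 20 counts. At 0.496 ± 0.128 CPM (SD, n = 4) it was at least 8-fold above the floor (edgeR adjusted p 4.8e-07). Fgf15, the mouse bile acid signal from the gut, had 0 counts in all control libraries and 6, 12, 7 and 9 counts in Klf4 libraries. It was below the filter, and its 0.171 ± 0.0666 CPM (SD, n = 4) was at least 2.76-fold above the floor. With no filter it was called (edgeR adjusted p 3.82e-05). The 3 genes lie on the plus strand of chromosome 7 within 62.9 kb (GRCm38): Fgf3 at 144838083 to 144844436, Fgf4 at 144847367 to 144865243 and Fgf15 at 144896531 to 144900953. Of the 3 other protein-coding genes within 200 kb, Ccnd1, which encodes cyclin D1, was higher (0.104 ± 0.0393 against 0.485 ± 0.224 CPM, SD, n = 4; log2 difference 2.20, edgeR adjusted p 0.000115). LTO1 did not pass the test (log2 difference 0.12, edgeR adjusted p 0.191), and Ano1 was below the filter, with 0 to 13 counts in control and 3 to 15 in Klf4 libraries. Exons of Fgf15 overlap antisense genes, and whether strand was used in counting is not given in the sources used here.

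The Fgf8 group, Fgf8, Fgf17 and Fgf18, rose as well. These ligands pattern the midbrain, limb and skeleton of the embryo. Fgf18 had 0.68, 0.514, 0.73 and 0.87 CPM in control and 4.47, 4.42, 5.46 and 6.54 CPM in Klf4 libraries. This was a 7.48-fold difference with a wide gap between the groups (log2 difference 2.90 with SE 0.14, edgeR adjusted p 1.44e-13), and it was nearly the same in batch 1 (2.89) and batch 2 (2.90). Fgf8 rested on fewer counts, 4, 11, 2 and 2 in control and 54, 44, 116 and 79 in Klf4 libraries. The groups did not overlap, and the level was 14.6-fold higher (log2 difference 3.79 with SE 0.40, edgeR adjusted p 7.03e-08). Control replicate 2 held most of its control counts, and without that library the log2 difference was 4.71. Fgf17 had 8, 13, 6 and 10 counts in control and 30, 15, 39 and 32 in Klf4 libraries, with no overlap in CPM (log2 difference 1.54 with SE 0.36, edgeR adjusted p 0.00161).

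Among ligands of the epithelial FGF receptor forms, Fgf7 and Fgf22 were higher and Fgf10 was near absent. Fgf22, a presynaptic organiser in the brain, had 0.935, 0.924, 1.24 and 1.14 CPM in control and 1.92, 1.83, 2.49 and 2.47 CPM in Klf4 libraries. No library of one group reached the other (log2 difference 1.04 with SE 0.16, edgeR adjusted p 1.42e-05). Its exons overlap those of Rnf126 on the other strand, which was far more abundant and did not pass the test (122.8 ± 6.53 against 124.4 ± 9.01 CPM, SD, n = 4). Fgf7, the keratinocyte growth factor, had 1, 4, 4 and 5 counts in control and 23, 23, 17 and 14 in Klf4 libraries (log2 difference 2.35 with SE 0.47, edgeR adjusted p 2.94e-04). Again the groups did not overlap. Fgf10, which drives growth of the pancreatic bud, had at most 3 counts in any library and was not tested.

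Per length of exon, Fgf1 and Fgf9 were the most abundant secreted FGFs in control cells, and they differed in response. Fgf1, which binds every FGF receptor, had 68.9, 64.7, 55.3 and 56.8 CPM in control and 67.1, 66.6, 54.9 and 54.1 CPM in Klf4 libraries. The groups overlapped over all libraries, and batch 2 was lower than batch 1 in both of them (log2 difference -0.02 with SE 0.03, edgeR adjusted p 0.721). Fgf9, a ligand of gonad and lung mesenchyme signalling, had 7.39, 9.1, 7.02 and 7.09 CPM in control and 10.8, 11.8, 10.1 and 9.92 CPM in Klf4 libraries. All Klf4 libraries were above all control libraries (1.39-fold, log2 difference 0.47, SE 0.08, edgeR adjusted p 2.39e-05). Its close relative Fgf20, whose exons overlap those of Micu3, did not pass the test (1.34 ± 0.261 against 1.03 ± 0.193 CPM, SD, n = 4; log2 difference -0.37, edgeR adjusted p 0.161). Micu3, on the other strand, was far more abundant and was called lower (28.1 ± 3.32 against 24.9 ± 1.45 CPM, SD, n = 4, log2 difference -0.17, edgeR adjusted p 0.0195).

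Fgf2, the basic FGF used to culture stem cells, had 3, 7, 1 and 1 counts in control and 27, 20, 37 and 39 in Klf4 libraries. The groups were well apart (log2 difference 3.22 with SE 0.48, edgeR adjusted p 9.11e-06), and without control replicate 2 the log2 difference was 4.06. Its exons overlap those of Nudt6 on the opposite strand, whose 9.37 ± 0.658 CPM in control and 9.08 ± 0.968 CPM in Klf4 libraries (SD, n = 4) did not pass the test. The phosphate hormone Fgf23 did not pass either (0.335 ± 0.0956 against 0.263 ± 0.0943 CPM, SD, n = 4, edgeR adjusted p 0.482). Of the untested secreted FGFs, the metabolic hormone Fgf21 had 0 to 7 counts in control and 3 to 14 in Klf4 libraries, Fgf5 had 0 to 1 and 1 to 7, Fgf6 had 0 to 3 and 2 to 8, and Fgf16 had 0 and 0 to 5. None of these 4 genes was tested.

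The intracellular FGFs, Fgf11 to Fgf14, stay in the cell and bind voltage-gated sodium channels. Fgf11 had 0.382, 0.493, 0.73 and 0.953 CPM in control and 5.92, 5.48, 7.85 and 9.42 CPM in Klf4 libraries. It rose 11.2-fold with no overlap (log2 difference 3.49 with SE 0.14, edgeR adjusted p 3.35e-15), by 3.69 in batch 1 and 3.36 in batch 2 on the log2 scale. Fgf13 had 1.06, 1.23, 1.4 and 1.04 CPM in control and 2.92, 1.94, 2.7 and 3.15 CPM in Klf4 libraries. Here too the groups were separate (log2 difference 1.18 with SE 0.17, edgeR adjusted p 6.14e-06). Fgf12, the most abundant of the 4 per length of exon, had 24.1, 26.8, 28.5 and 30.5 CPM in control and 24.2, 24.4, 29.6 and 28.4 CPM in Klf4 libraries (log2 difference -0.05 with SE 0.05, edgeR adjusted p 0.506). Fgf14 had 4.78, 4.83, 4.79 and 4.70 CPM in control, and its Klf4 libraries (5.90, 4.57, 5.93 and 4.08 CPM) lay on both sides of these (log2 difference 0.10 with SE 0.11, edgeR adjusted p 0.53).

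Upstream sequence is shown for 5 members that rose and for Egfr, which fell slightly, so that GC-rich boxes near their starts can be compared. RefSeq (GRCm38.p6) gave 38 start sites for 30 of the 42 members, and the 250 bases before each start were searched on both strands for CACCC, the core of the boxes that Krüppel-like factors are known to bind, and for CCNCNCCC, a looser GC-box pattern that can overlap it. Capitals mark CCNCNCCC or its reverse complement, and all lines run 5′ to 3′ on the gene's strand. Egfr and Fgf18 have no such match, so the windows shown are examples and do not stand for the groups counted below. The other members counted there include untested ones, such as Fgf5 and Fgf10. The 6 windows touch no annotated exon of GENCODE M21. Those of Fgf4 and Fgfrl1 still lie inside the GENCODE gene, which starts further upstream (at 144847367 and 108692382) than the RefSeq start used.
Fgf4 (chr7:144861136-144861385, plus strand): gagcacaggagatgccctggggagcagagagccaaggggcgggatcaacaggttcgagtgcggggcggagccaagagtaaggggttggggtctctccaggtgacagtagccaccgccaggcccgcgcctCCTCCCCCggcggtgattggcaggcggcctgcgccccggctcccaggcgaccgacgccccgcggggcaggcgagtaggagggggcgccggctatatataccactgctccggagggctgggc
Fgf11 (chr11:69802281-69802530, minus strand): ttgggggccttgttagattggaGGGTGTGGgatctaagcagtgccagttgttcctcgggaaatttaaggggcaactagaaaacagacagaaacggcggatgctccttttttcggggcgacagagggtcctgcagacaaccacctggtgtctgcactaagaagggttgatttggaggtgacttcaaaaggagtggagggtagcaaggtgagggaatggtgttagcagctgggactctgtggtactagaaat
Fgf18 (chr11:33147401-33147650, minus strand): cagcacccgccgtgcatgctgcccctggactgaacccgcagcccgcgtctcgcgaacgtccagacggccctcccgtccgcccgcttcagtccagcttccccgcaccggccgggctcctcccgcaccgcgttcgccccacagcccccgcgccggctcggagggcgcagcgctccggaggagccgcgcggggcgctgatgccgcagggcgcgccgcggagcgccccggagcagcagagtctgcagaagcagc
Fgfrl1 (chr5:108693979-108694228, plus strand): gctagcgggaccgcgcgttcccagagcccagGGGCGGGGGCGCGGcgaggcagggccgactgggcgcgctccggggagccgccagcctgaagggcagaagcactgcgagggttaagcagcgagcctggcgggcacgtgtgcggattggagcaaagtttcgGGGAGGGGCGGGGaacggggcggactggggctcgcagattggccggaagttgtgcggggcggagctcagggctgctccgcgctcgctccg
Areg (chr5:91139349-91139598, plus strand): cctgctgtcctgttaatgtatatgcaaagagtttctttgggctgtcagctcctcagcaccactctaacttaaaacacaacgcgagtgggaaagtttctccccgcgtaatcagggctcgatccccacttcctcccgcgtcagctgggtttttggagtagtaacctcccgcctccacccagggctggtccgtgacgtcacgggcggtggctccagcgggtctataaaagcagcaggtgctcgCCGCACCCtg
Egfr (chr11:16751953-16752202, plus strand): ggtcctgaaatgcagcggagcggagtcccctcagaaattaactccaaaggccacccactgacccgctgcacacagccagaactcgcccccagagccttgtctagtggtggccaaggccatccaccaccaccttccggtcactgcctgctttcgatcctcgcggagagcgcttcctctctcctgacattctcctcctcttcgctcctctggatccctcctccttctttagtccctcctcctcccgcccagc
CCNCNCCC was found in 12 of 18 windows of members that rose (66.7%), in 13 of 20 windows of the other members (65%) and in 45.9% of all 32851 windows of this length. CACCC was found in 9 of 18 (50%), 12 of 20 (60%) and 52.0% in the same order. Some genes gave several windows, and these are matches of letters, with no binding measured.

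The FGF receptor genes changed unequally. Fgfr3, a receptor that restrains growth of cartilage, had 6.35, 4.72, 5.4 and 5.01 CPM in control and 36.2, 32.5, 36.4 and 39.9 CPM in Klf4 libraries. Its 6.75-fold rise was far larger than the spread between libraries (log2 difference 2.75 with SE 0.08, edgeR adjusted p 3.56e-18) and similar in batch 1 (2.64) and batch 2 (2.87). Fgfrl1, a receptor-like protein that binds FGFs but has no kinase domain, had 11, 7, 7 and 6 counts in control and 63, 52, 103 and 115 in Klf4 libraries. It was 10.1-fold higher, again without overlap (log2 difference 3.29 with SE 0.29, edgeR adjusted p 3.04e-09). G630022F23Rik, an annotated gene, overlaps Fgfr3 on the other strand and had 0 to 5 counts in control and 19 to 48 in Klf4 libraries.

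Fgfr1, the main receptor of mesenchyme, had 27.9, 27.2, 22.5 and 23.3 CPM in control and 28.9, 30.2, 27.5 and 29.6 CPM in Klf4 libraries. The groups overlapped across batches but not within a batch (log2 difference 0.21 with SE 0.05, edgeR adjusted p 0.00237), and without the batch term the call was lost (adjusted p 0.0688). Fgfr2, the receptor of the pancreatic bud, had 19.2, 18.7, 12.5 and 14.6 CPM in control and 19.8, 18.4, 13 and 13.2 CPM in Klf4 libraries. The split there was by batch and not by plasmid (log2 difference -0.02 with SE 0.06, edgeR adjusted p 0.862). Fgfr4, which pairs with klotho proteins in liver, had 21.1, 21.6, 19.6 and 18.5 CPM in control and 20.2, 19.5, 16.6 and 18.9 CPM in Klf4 libraries (log2 difference -0.10 with SE 0.05, edgeR adjusted p 0.143). Counts per gene do not separate the epithelial and mesenchymal splice forms of Fgfr1, Fgfr2 and Fgfr3.

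Per length of exon, the makeup of the FGF kinase receptors differed between the groups. Of the summed CPM per kb of Fgfr1 to Fgfr4, the share of Fgfr3 went from 7.11% ± 0.888 to 34.1% ± 3.16 between control and Klf4 libraries (SD, n = 4). That of Fgfr4 went from 54% ± 2.04 to 35.7% ± 1.4, and that of Fgfr1 from 24.1% ± 0.555 to 19.8% ± 0.758 (SD, n = 4). That of Fgfr2 went from 14.8% ± 1.75 to 10.4% ± 1.96 (SD, n = 4). None of the 4 shares overlapped between the groups, and Fgfr2 came closest (12.4% to 16.1% in control against 8.42% to 12.3%). A share can fall while the level does not: the levels of Fgfr2 and Fgfr4 did not pass the test. The summed level was 9.69 to 11.5 CPM per kb in control and 13.8 to 15.6 CPM per kb in Klf4 libraries. An annotated model of Fgfr2 reaches exons of Ctbp2 and lengthens its exon sum, so the per-length level of Fgfr2 is uncertain.

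**Figure D2:**
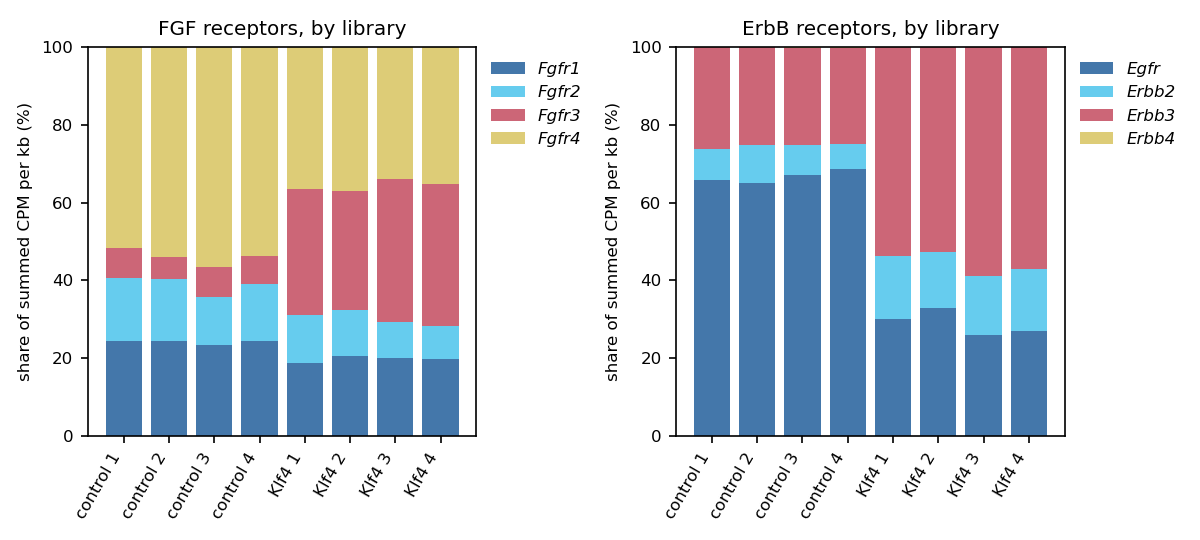
Share of each receptor, in percent of the summed CPM per kb of exon of its family, in each of the 8 libraries, with one stacked bar per library. Fgfr3 (7.11% against 34.1%) and Erbb3 (25.2% against 55.6%) take larger shares in every Klf4 library than in any control library.

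Of the ErbB receptors, Erbb2 and Erbb3 rose and Egfr fell slightly. Erbb3, a neuregulin receptor with little kinase activity of its own, had 9.26, 8.94, 9.68 and 8.87 CPM in control and 36.1, 36.4, 50.2 and 47.3 CPM in Klf4 libraries. It was 4.63-fold higher with no overlap (log2 difference 2.20 with SE 0.07, edgeR adjusted p 1.57e-17), by 1.99 in batch 1 and 2.39 in batch 2. Erbb2, the partner receptor that binds no known ligand, had 2.4, 3.04, 2.6 and 2.03 CPM in control and 9.39, 8.66, 11.2 and 11.4 CPM in Klf4 libraries. The rise was 4.04-fold, also without overlap (log2 difference 2.01 with SE 0.11, edgeR adjusted p 1.7e-12). Its exons overlap those of Mien1 on the other strand. Mien1 was more abundant and rose by less on the log2 scale (39.7 ± 2.31 against 48.0 ± 2.48 CPM, SD, n = 4, log2 difference 0.27, edgeR adjusted p 5.94e-06). In CPM the rise of Mien1 was no smaller than that of Erbb2 (means of 2.52 and 10.2 CPM).

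Egfr, the receptor of the EGF-type ligands, had 44, 43.8, 49.1 and 46.3 CPM in control and 38.2, 42.7, 41.5 and 41.8 CPM in Klf4 libraries. The groups did not overlap, though the fall was small (log2 difference -0.16 with SE 0.04, edgeR adjusted p 0.00479), and without the batch term it did not pass (adjusted p 0.0521). Erbb4, a further neuregulin receptor, had 2 to 9 counts in control and 1 to 9 in Klf4 libraries and was not tested. Per length, the share of Egfr in the family's summed level went from 66.7% ± 1.52 to 28.9% ± 3.17, that of Erbb3 from 25.2% ± 0.633 to 55.6% ± 2.95, and that of Erbb2 from 7.98% ± 1.36 to 15.4% ± 0.769 (SD, n = 4). The summed ErbB level was 5.89 to 6.45 CPM per kb in control and 11.2 to 14.2 CPM per kb in Klf4 libraries.

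EGF-type ligands moved in both directions. Hbegf, the heparin-binding ligand, had 28.7, 27.4, 24.7 and 23 CPM in control and 36.3, 36.3, 32.4 and 33 CPM in Klf4 libraries. It rose 1.33-fold with no overlap (log2 difference 0.41 with SE 0.04, edgeR adjusted p 7.02e-08). Tgfa, transforming growth factor α, had 15.8, 14.7, 16.2 and 15.8 CPM in control and 19.6, 20.8, 19.6 and 21.1 CPM in Klf4 libraries. This rise was close in size, 1.30-fold, and the groups were separate (log2 difference 0.37 with SE 0.05, edgeR adjusted p 6.33e-06). Egf itself had 5.35, 5.85, 4.69 and 5.68 CPM in control and 4.72, 4.33, 3.8 and 3.77 CPM in Klf4 libraries. It fell, with overlap between control replicate 3 and Klf4 replicate 1 (log2 difference -0.38 with SE 0.10, edgeR adjusted p 0.00389).

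Areg, Ereg, Epgn and Btc, further EGF-type ligands, share a stretch of 375.5 kb on chromosome 5 and were scarce. Areg, amphiregulin, had 0, 4, 0 and 0 counts in control and 21, 10, 16 and 17 in Klf4 libraries. It passed the test without overlap (log2 difference 3.79 with SE 0.72, edgeR adjusted p 1.25e-04), but its size rests on the 4 counts of control replicate 2. The other 3 control libraries had none, and against the floor of 3 counts the level was at least 5.05-fold higher. Ereg had 1, 2, 0 and 0 counts in control and 7, 10, 0 and 0 in Klf4 libraries, so that all of its counts lay in batch 1. Btc had 0 to 7 and 3 to 9 counts, Epgn had 1 count in all 8 libraries together, and neither these nor Ereg was tested.

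Of the neuregulins, Nrg1 and Nrg2 bind both Erbb3 and Erbb4. Nrg1, which acts in heart and Schwann cell development, had 1.74, 2.18, 1.7 and 1.89 CPM in control and 2.54, 3.27, 3.38 and 3.13 CPM in Klf4 libraries. It rose 1.64-fold with no overlap (log2 difference 0.71 with SE 0.14, edgeR adjusted p 3.17e-04). Nrg2 had 4, 21, 9 and 6 counts in control and 29, 17, 36 and 36 in Klf4 libraries, and control replicate 2 overlapped Klf4 replicate 2. Its log2 difference was 1.47 (SE 0.41, edgeR adjusted p 0.00633) and 2.20 without control replicate 2. Nrg3 (1.58 ± 0.595 against 1.46 ± 0.139 CPM, SD, n = 4, edgeR adjusted p 0.793) and Nrg4 (1.39 ± 0.309 against 1.09 ± 0.112 CPM, SD, n = 4, edgeR adjusted p 0.185) did not pass the test.

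**Figure D3:**
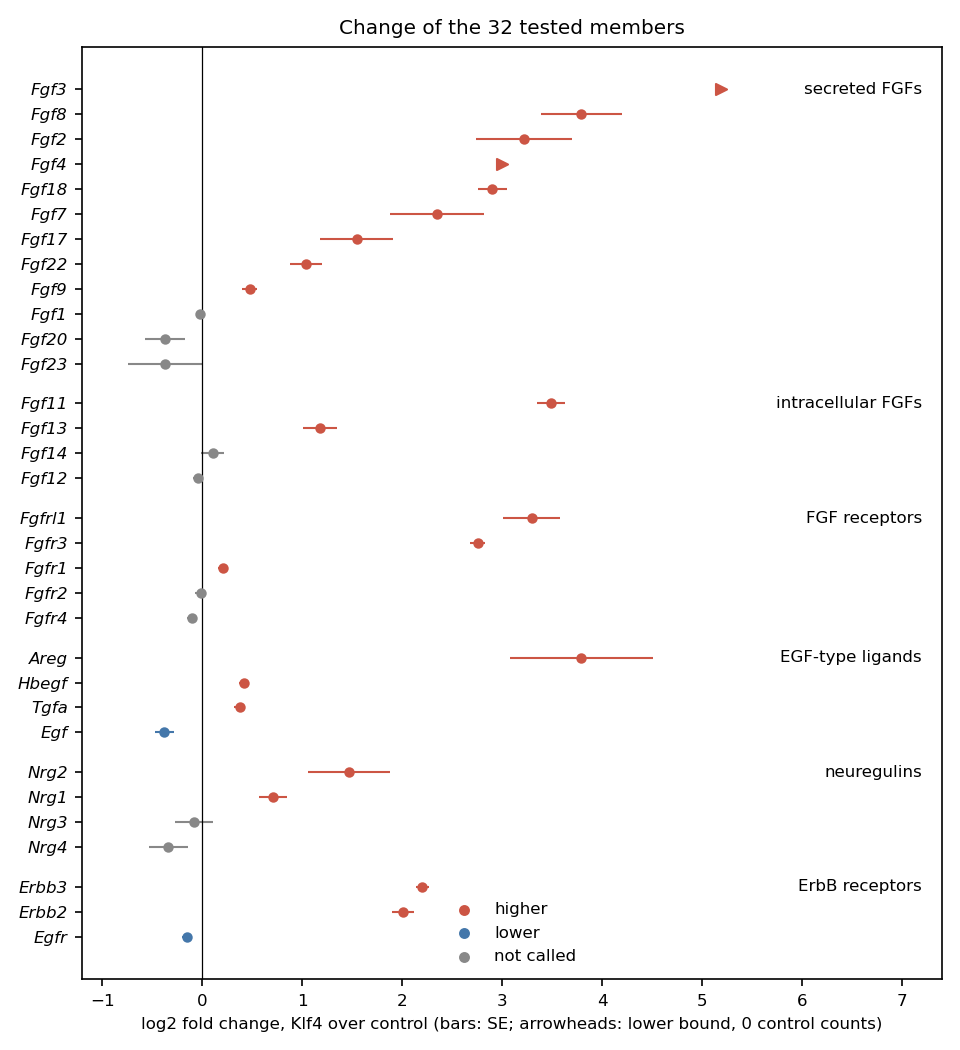
Log2 fold change of Klf4 over control libraries for the 32 tested members, grouped by role, with bars for the SE and arrowheads for the lower bound of the 2 genes at 0 counts in control. Fgf8 and Areg both lie at 3.79, whereas the 9 members in grey, which did not pass the test, lie between -0.37 and 0.10.

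The order of levels per length of exon put Fgf1 first in both groups. In control cells the highest were Fgf1 (11.2 CPM per kb), Fgfr4 (5.71), Hbegf (5.37), Fgf12 (4.43) and Egfr (4.04). With SDs of 1.19 for Fgf1, 0.403 for Fgfr4 and 0.531 for Hbegf (n = 4), Fgf1 stood clear, and Fgfr4 and Hbegf lay within their spread of each other. In Klf4 cells Fgf1 (11.1 CPM per kb) was followed by Hbegf (7.14), Erbb3 (7.06), Fgfr4 (5.31) and Fgfr3 (5.06). Erbb3 thus went from rank 10 to rank 3, Fgfr3 from rank 13 to rank 5, Fgf18 from rank 14 to rank 6 and Fgf11 from rank 21 to rank 11. Hbegf and Erbb3 did not differ beyond their spread (SDs of 0.432 and 1.22, n = 4).

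Both batches gave the same sign for each of the 21 members that rose. These members were called from the same libraries, so a shared sign was favoured in advance. In a test of the difference between batches, 0.766% of all genes were called, and none of the 32 tested members (edgeR interaction test; 6 at an unadjusted p under 0.05, as were 10.6% of all genes, and 0 adjusted calls by DESeq2). Those 6 were Erbb2, Erbb3, Fgf2, Fgf8, Fgfr1 and Fgfrl1, and each had the larger log2 difference in batch 2. For Fgf2 and Fgf8 this rests on few control counts. Fgf2 had 3 and 7 in batch 1 and 1 and 1 in batch 2, and Fgf8 had 4 and 11, then 2 and 2. Of all 1942 genes at that unadjusted p, 64.1% also had the higher log2 difference, sign included, in batch 2. Klf4 itself also differed more in batch 2 (log2 difference 7.16 against 6.79 in batch 1, edgeR interaction adjusted p 0.0057), and its part in these values was not tested. For Erbb3 the adjusted p was 0.0633, and it was the 1 member called when only genes at 1 CPM or more in 4 libraries were tested.

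Other genes of the same pathways were read from 4 lists. The lists were chosen with earlier results of these data known, so their shares are no independent test. Of 22 listed FGF co-receptors, heparan sulphate carriers and binding proteins, 19 were tested, 9 were higher and 10 did not pass, with a median log2 difference of 0.17 against -0.01 over all genes. This is 47.4% higher, where 21.1% of all genes were higher and 15.5% lower. Hspg2, the basement membrane proteoglycan perlecan, went from 2.34 ± 0.849 to 55.0 ± 11.1 CPM (SD, n = 4; log2 difference 4.54, edgeR adjusted p 1.28e-17). Its rise differed between batches, at 3.97 in batch 1 and 5.18 in batch 2 (edgeR interaction adjusted p 0.000272). Flrt3, a membrane protein that binds FGF receptors, rose by 1.24 and the syndecan Sdc4 by 1.00 on the log2 scale (edgeR adjusted p 5.27e-07 and 6.33e-13). The klotho genes Kl and Klb did not pass (log2 differences 0.22 and -0.08, edgeR adjusted p 0.644 and 0.611).

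Of 19 listed genes for ErbB ligand release and receptor turnover, 18 were tested, 6 were higher (33.3%, against 21.1% of all genes) and 3 lower (16.7%, against 15.5%), with a median log2 difference of 0.03. Without the batch term 2 were higher. Rhbdf1, an inactive rhomboid protein that helps mature the ligand-releasing protease Adam17, went from 0.634 ± 0.207 to 3.68 ± 0.356 CPM (SD, n = 4; log2 difference 2.54, edgeR adjusted p 1.44e-10). Tmeff2 and Tmeff1, membrane proteins with an EGF-like domain, rose by 0.66 and 0.32 on the log2 scale (edgeR adjusted p 0.00233 and 0.00178). Lrig2, Socs4 and Cbl fell by 0.22, 0.18 and 0.14 (edgeR adjusted p 0.000854, 0.00337 and 0.00943). Adam17 and Adam10, the main proteases of ErbB ligand release, did not pass (log2 differences 0.09 and 0.08).

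Of 20 shared adaptors and kinases, all tested, 2 were higher (10%), 3 were lower (15%) and 15 did not pass (median log2 difference -0.04). Both shares were below those of all genes, 21.1% and 15.5%, and without the batch term 1 gene was lower. The adaptor Shc1 rose from 90.4 ± 2.87 to 133.8 ± 2.61 CPM (SD, n = 4; log2 difference 0.57, edgeR adjusted p 9.41e-13) and the kinase Map2k2 rose by 0.17 (edgeR adjusted p 6.27e-05). Sos2, Braf and Plcg1 fell by 0.16, 0.16 and 0.09 on the log2 scale (edgeR adjusted p 0.00319, 0.00233 and 0.0162).

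Of 21 genes known as feedback or response genes of the ERK cascade, all tested, 10 were higher (47.6%, against 21.1% of all genes), 2 were lower (9.52%, against 15.5%) and 9 did not pass (median log2 difference 0.11). Without the batch term 6 were higher and 1 was lower. The largest rises were in Ccnd1 (2.20, given above), the ephrin receptor Epha2 (1.74, from 10.6 ± 1.28 to 35.5 ± 3.43 CPM, SD, n = 4, edgeR adjusted p 9.36e-15) and Fosl1, an AP-1 subunit (0.84, edgeR adjusted p 0.000516). Ccnd1 reached the filter's level in no control library, so it entered the test through the Klf4 libraries. Etv1 and Dusp6 were the 2 that fell, by 0.22 and 0.20 (edgeR adjusted p 3.72e-05 and 0.000259), while Spry4 and Spry2, feedback inhibitors of receptor kinases, rose by 0.47 and 0.28 (edgeR adjusted p 1.22e-05 and 0.00165). The size of the change differed between batches for Epha2 (1.51 in batch 1 and 1.97 in batch 2, edgeR interaction adjusted p 0.0392). The same held for Etv1 (-0.11 in batch 1 and -0.33 in batch 2, edgeR interaction adjusted p 0.0295). The members' RNA levels say nothing of ligand release or receptor activity, which were not measured.

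**Figure D4:**
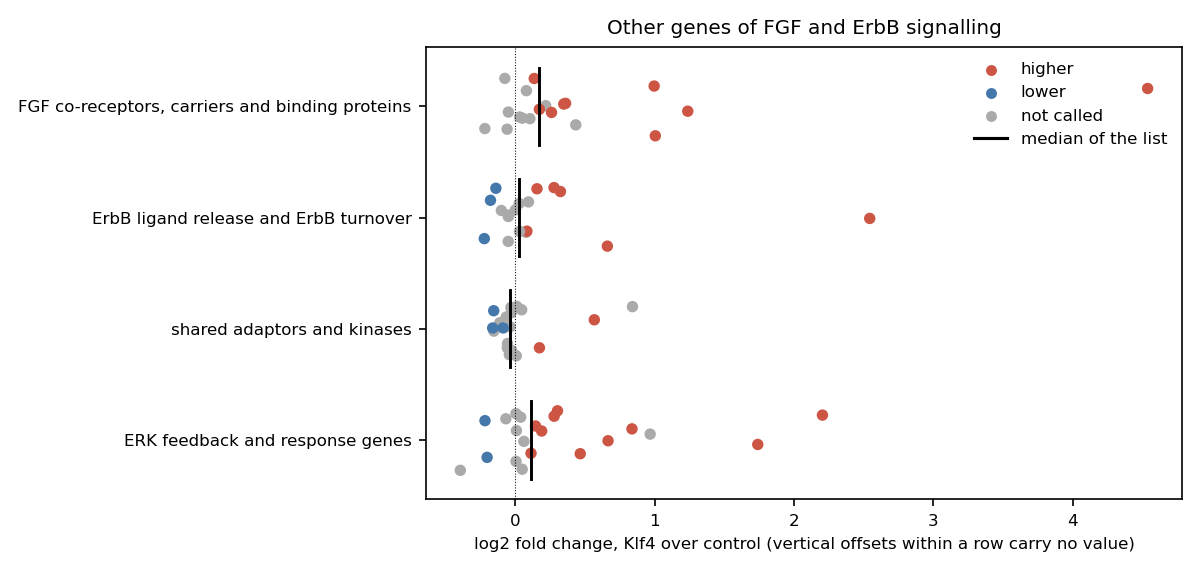
Log2 fold change of Klf4 over control for each tested gene of the 4 pathway lists, 1 point per gene, with red for higher, blue for lower, grey for not called and a black line at each list's median. The medians lie between -0.04 and 0.17, and Hspg2 at 4.54 is the point farthest to the right.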

How the data were processed

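The authors deposited whole-number read counts per gene, 1 column per library, not normalised. The submitters' processing notes name FastQC, STAR, featureCounts, edgeR and the build mm10, without versions or settings. The strand setting and annotation are not given in the sources used here. Gene models came from GENCODE M21 (GRCm38), which held all 42 members. Exons of 15 members overlap another gene, and of 6 a protein-coding one.

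Counts were fitted in edgeR 4.0.16 (R 4.3.3) with filterByExpr (minimum count 10), which left 18266 genes, TMM factors and terms for batch and plasmid, following the series' description. P-values were adjusted by Benjamini-Hochberg over all tested genes, and the threshold was 0.05. The SE is the unshrunken coefficient divided by the root of the quasi-likelihood F. Alternatives used DESeq2 1.42.0, limma-voom (limma 3.58.1), other filters and scalings, no batch term, a replicate block and the omission of each library. The procedure was tested on simulated counts.

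Same-numbered libraries of the groups deviated together (correlations 0.479 to 0.638 over 10485 genes), but not once batch means were removed (-0.05 and 0.09), so the numbers in the sample titles pair libraries by batch. Libraries of a group differed beyond sampling noise (chi-square per degree of freedom 4.23 to 5.71 within a batch and 17.4 to 23.3 across batches). Members and lists were chosen with earlier results of these data known. Values in every library are given for each called member and for uncalled members whose average log2 CPM reaches 1. Of each pathway list, up to 3 called genes of largest change in each direction are named, and further genes were chosen after their values were seen. The series' design text calls the replicates biological but the labels do not say how the cultures were separated. The p-values thus measure the spread between these samples, and with the batch term only their spread within a batch. Figures were made with Python 3.11.15.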

Additional observations from a re-analysis of the deposited data

Results flagged for a closer look

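The level of each tested member was checked for a library far from the other 3 of its group. Of 62 such checks, where chance gives about 1 in 20, 1 stood out. Control replicate 2 had 0.0822 CPM of Areg, which is 4 counts, while the other 3 control libraries had 0 counts. The log2 difference of Areg, 3.79 over all libraries, rests on these counts. Without them no control count is left, and the Klf4 level is at least 5.05-fold above a floor of 3 counts per control library.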

How the results depend on the processing

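The 23 called members gave 361 values under the 16 alternatives, of which 359 kept their direction and call, none reversed and 2 lost the call, Egfr and Fgfr1 without the batch term. Without the batch term, 1 member was lower, 4116 genes were called in all (71.8% of them higher, against 57.7% with the term), and the lists gave 2 higher calls for ErbB ligand release and turnover, 1 lower call among shared adaptors and kinases, and 6 higher and 1 lower among ERK response genes. With the replicate block in place of batch, 21 members were higher and 2 lower, 6284 genes were called, and no member's call changed. The filter at 1 CPM in 4 libraries left 14 members higher, since fewer were tested, and 1 member that differed between batches. Leaving out 1 library at a time gave 3 to 5 lower calls among shared adaptors and kinases and 0 to 1 among FGF co-receptors and carriers. Reversals of sign were seen in members that did not pass the test: with factors from abundant genes Fgf1 had 0.016 and Fgfr2 0.017, and with 1 library left out Fgfr2 ranged from -0.065 to 0.025, Nrg3 from -0.19 to 0.14 and Fgf14 from -0.018 to 0.204. The cause was not tested. The 10 members below the filter were not tested, and with no filter 1 of them, Fgf15, was called.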
